A study of Mus musculus with 8 samples.

Results

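Transcripts of 9 ATP-binding cassette (ABC) transporters that move lipids or drugs across membranes were followed in the retinas of aged mice: Abca1, Abca2, Abca3, Abca4, Abca7, Abcb1a, Abcb1b, Abcg1 and Abcg2. Their probes were found by matching the accession of each probe on the array to the gene table, which gave 13 of the 56605 probes other than controls, for 9 of the 22911 genes named on the array. Every probe was kept apart. Total RNA of whole retina was hybridized to one-color Cy3 arrays, 4 labelled homozygous Mrp4 knockout (called Mrp4-null here) and 4 wild-type, all from mice given as 46 to 55 weeks old. The knockout line was kept on a C57BL/6J background, and the sources name no promoter or cell type that would limit the knockout. How many animals went into each sample was not clear from the sources, so p-values measured the spread between these samples, which may be technical in part. In whole retina, fewer cells of a type and less RNA per cell cannot be told apart.

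ABC transporters are membrane proteins that bind and split ATP to carry a substrate across a bilayer. Many members of the A subfamily flip or export phospholipids and cholesterol. ABCA4 of photoreceptor outer segments moves retinoid conjugates of phosphatidylethanolamine to the cytoplasmic face of the disc, and its loss is the cause of Stargardt disease. ABCB1, or P-glycoprotein, which mice make from the paired genes Abcb1a and Abcb1b, and ABCG2 are the best known drug pumps of the blood vessel wall at the blood-brain and blood-retinal barriers. MRP4, encoded by Abcc4, belongs to the C subfamily and is an efflux pump of the same vessels, so the question was whether these other transporters stood at a different transcript level in the arrays labelled Mrp4-null.

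Promoter windows are shown for the 6 members whose signals moved together or in opposition from array to array. Each window holds the 250 bases before the annotated start, from RefSeq on GRCm38.p6, written 5′ to 3′ on the strand of the gene. A window was present for 8 of the 9 genes. Capitals mark every match on either strand to a motif searched, which in these windows were GGGCGG (the GC box), CCAAT (the box named for its letters), TATAAA (the TATA box), CACGTG (an E-box), TCACNCCAC (a sterol response element) and TAATCC, the core bound by CRX, the homeobox factor of photoreceptors.
Abca4, chr3:122044210-122044459, plus strand: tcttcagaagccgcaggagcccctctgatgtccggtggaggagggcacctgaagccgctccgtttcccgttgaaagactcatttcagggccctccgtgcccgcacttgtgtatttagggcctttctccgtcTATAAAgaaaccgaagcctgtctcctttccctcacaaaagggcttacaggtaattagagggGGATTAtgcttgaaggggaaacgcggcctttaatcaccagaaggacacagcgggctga
Abca3, chr17:24351773-24352022, plus strand: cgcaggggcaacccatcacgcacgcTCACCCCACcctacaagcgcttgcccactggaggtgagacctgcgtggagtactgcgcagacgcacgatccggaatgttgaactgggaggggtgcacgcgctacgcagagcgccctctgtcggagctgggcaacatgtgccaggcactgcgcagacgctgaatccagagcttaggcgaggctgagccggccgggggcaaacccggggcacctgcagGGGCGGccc
Abca7, chr10:79996244-79996493, plus strand: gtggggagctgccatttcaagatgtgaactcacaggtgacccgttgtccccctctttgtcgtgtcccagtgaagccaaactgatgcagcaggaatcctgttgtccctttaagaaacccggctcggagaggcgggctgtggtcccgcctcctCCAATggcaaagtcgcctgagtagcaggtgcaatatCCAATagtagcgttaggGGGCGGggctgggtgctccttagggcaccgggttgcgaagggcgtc
Abca1, chr4:53159896-53160145, minus strand: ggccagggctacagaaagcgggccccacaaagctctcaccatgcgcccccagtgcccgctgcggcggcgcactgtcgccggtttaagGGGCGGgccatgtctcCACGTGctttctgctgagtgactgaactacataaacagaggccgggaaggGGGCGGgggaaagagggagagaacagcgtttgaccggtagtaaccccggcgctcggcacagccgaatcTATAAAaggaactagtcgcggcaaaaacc
Abcb1a, chr5:8566841-8567090, plus strand: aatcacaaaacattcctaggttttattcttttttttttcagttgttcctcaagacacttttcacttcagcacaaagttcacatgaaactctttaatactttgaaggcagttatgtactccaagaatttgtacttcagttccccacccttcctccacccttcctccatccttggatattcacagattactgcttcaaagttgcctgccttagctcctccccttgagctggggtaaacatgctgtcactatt
Abcb1b, chr5:8797897-8798146, plus strand: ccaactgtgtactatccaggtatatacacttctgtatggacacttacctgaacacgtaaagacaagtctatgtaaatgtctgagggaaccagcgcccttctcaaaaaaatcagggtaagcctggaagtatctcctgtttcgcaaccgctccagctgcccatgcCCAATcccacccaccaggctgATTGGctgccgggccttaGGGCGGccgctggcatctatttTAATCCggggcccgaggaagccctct

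The Abca4 window held a CRX core on the opposite strand, read as GGATTA, 58 to 53 bases before the start, and TATAAA 119 to 114 bases before it. TAATCC in either orientation occurred in 6.25% of all 32851 windows of that length and TATAAA in 12.4%. The Abcb1b window held TAATCC as well, 26 to 21 bases before its start, together with GGGCGG and CCAAT in both orientations. GGGCGG occurred in 32.7% of all windows and CCAAT in 33.8%. The window of Abcb1a, the neighbour and close relative of Abcb1b, held none of the motifs searched and was the poorest of the 6 in G and C, at 40.4% against 67.6% for Abca3. The Abca1 window held an E-box 147 to 142 bases before the start, a motif of 6.02% of windows, with a GC box on each side and TATAAA at 29 to 24 bases. Also searched were the nuclear receptor core AGGTCA (in 14% of windows), its direct repeat with a spacer of 4 bases to which liver X receptors bind (0.0152%), the antioxidant response core TGACNNNGC (10.2%) and the sterol response element TCACNCCAC (1.05%). Among the members, AGGTCA was in 2 of the 3 windows of Abcg2 and TCACNCCAC in that of Abca3, and neither the spaced repeat nor TGACNNNGC was in any member window. A match is a run of letters and not a tested binding site.

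The targeted gene was read first as a check of the labels. The Abcc4 probe A_52_P630867 read 10.84, 10.71, 10.64 and 10.80 (normalized log2 signal) on the samples labelled Mrp4-null 1 to 4 and 6.62, 7.13, 6.54 and 7.02 on wild-type 1 to 4. The probe was thus higher on every array labelled Mrp4-null, by 3.92 on the log2 scale (SE 0.14, limma adjusted p = 1.36e-05), which goes against the label of a knockout. Whether the probe lies in the deleted part of the gene is not known from the sources used here. Every direction given here rests on the labels as deposited. The slide carried the genotypes in separate rows, so slide row and genotype cannot be told apart. The 75th percentile of the processed signal, a measure of brightness in arbitrary units, was 497 to 786 per array, with the lowest values on Mrp4-null 2 (497) and wild-type 3 (514). Between 66.0% and 69.9% of probes were well above background on an array, no spot was saturated, and any 2 arrays correlated at 0.981 to 0.997 over the retained probes.

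No member transporter was called changed between the labelled genotypes. Of the 13 probes, 11 passed the filter on dim probes, with at least 1 for each of the 9 genes. None of the 11 reached a fold change of 1.5 with an adjusted p under 0.05, against 202 of all 37085 retained probes (0.545%; 0.256% higher and 0.289% lower). None had an unadjusted p under 0.05 (6.46% of all probes did), none had arrays that did not overlap between the genotypes (4.79% of all did), and none was called by the local pooled error test (0.626% of all were). The fitted differences lay between -0.14 and 0.20 on the log2 scale with a median of 0.021, beside a median of -0.0093 over all retained probes. By mean, 8 of the 11 were higher on the arrays labelled Mrp4-null, as were 46.8% of all probes, and that count fell to 5 when arrays were scaled to their 75th percentile. The adjusted p ran from 0.916 to 1.00 (limma). For 9 of the 11 the 95% interval of the difference lay within 1.5-fold either way, which held for 77.2% of all retained probes.

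**Figure D1:**
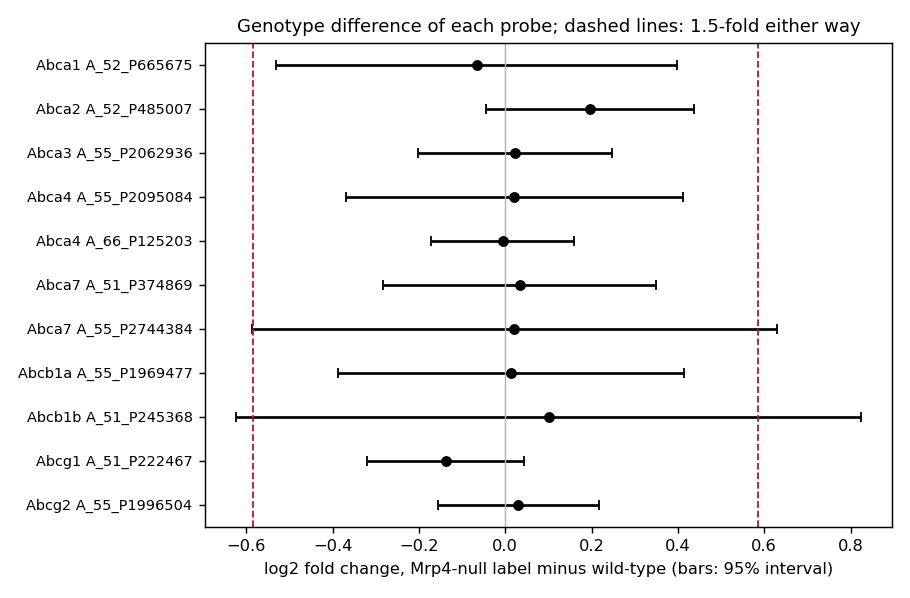
Fitted difference (points) and its 95% interval (bars) of the 11 retained member probes, as log2 fold change of the arrays labelled Mrp4-null over wild-type (4 arrays each), with dashed lines at 1.5-fold either way. Every interval includes 0, and those of Abcb1b and of the Abca7 probe A_55_P2744384 pass beyond a dashed line.

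The sterol and phospholipid exporters are described first. ABCA1 loads cholesterol and phospholipid onto lipid-poor apolipoproteins, the first step in making high-density lipoprotein. The Abca1 probe A_52_P665675 (chromosome 4) gave normalized log2 signals of 10.01, 9.20, 9.67 and 9.99 on Mrp4-null 1 to 4 and of 9.59, 10.05, 9.52 and 9.99 on wild-type 1 to 4. Each genotype held high and low arrays, with the lowest value on Mrp4-null 2, and the groups overlapped. The difference was -0.067 (SE 0.20, 95% interval -0.53 to 0.40). Its other probe, A_66_P112921, was dim, with a processed signal of at most 23.7 in arbitrary units. It was well above background on 3 of 4 arrays in each genotype and was not tested.

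ABCG1 hands cholesterol to lipoprotein particles that already carry lipid, after ABCA1 has acted. Abcg1 (A_51_P222467, chromosome 17) read 12.53, 12.75, 12.65 and 12.61 on Mrp4-null 1 to 4 and 12.73, 12.73, 12.88 and 12.76 on wild-type 1 to 4. Mrp4-null 2 reached into the wild-type range and the remaining 3 of its label were under all wild-type values. The difference of -0.14 (SE 0.080, 95% interval -0.32 to 0.04) was the lowest among the members and did not pass the test (limma adjusted p = 0.945; exact two-sided permutation p = 0.0857, where 0.0286 is the smallest that 4 against 4 allows).

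ABCA7 is a close relative of ABCA1 that is linked to phagocytosis and to the risk of Alzheimer's disease. The Abca7 probe A_51_P374869 (chromosome 10) read 12.49, 12.75, 12.54 and 12.20 on Mrp4-null 1 to 4 and 12.56, 12.30, 12.68 and 12.32 on wild-type 1 to 4. The other Abca7 probe, A_55_P2744384, read 7.58, 8.20, 7.91 and 7.11 on Mrp4-null 1 to 4 and 7.93, 7.34, 8.12 and 7.33 on wild-type 1 to 4. On both probes Mrp4-null 2 and wild-type 3 were highest in their genotype, and the groups overlapped throughout. The differences were 0.033 (SE 0.14, 95% interval -0.28 to 0.35) and 0.021 (SE 0.27, 95% interval -0.59 to 0.63), so for A_55_P2744384 a 1.5-fold difference in either direction lay inside the interval.

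Abca4, the retinoid flippase of rods and cones, was read by a pair of probes. Probe A_66_P125203 (chromosome 3) read 16.06, 16.16, 16.10 and 16.04 on Mrp4-null 1 to 4 and 16.12, 16.06, 16.17 and 16.02 on wild-type 1 to 4. Its processed signal was 60174 to 79950 with no spot saturated, and all 8 values lay close together. The difference was -0.0062 (SE 0.073, 95% interval -0.17 to 0.16), the narrowest interval of the 11. Probe A_55_P2095084 read 11.61, 12.08, 11.90 and 11.55 on Mrp4-null 1 to 4 and 12.06, 11.58, 11.95 and 11.46 on wild-type 1 to 4, a difference of 0.021 (SE 0.17, 95% interval -0.37 to 0.41). The gap between the probes of a gene did not move with the label beyond the spread between arrays, for Abca4 (shift of 0.027 on the log2 scale, exact permutation p = 0.771) or Abca7 (0.012, exact permutation p = 0.943). Adjusted over these 2 tests, both were 0.943.

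ABCA2 and ABCA3 serve lipid handling inside the cell, ABCA2 in endolysosomes of oligodendrocytes and neurons and ABCA3 in the lamellar bodies of the lung, where it loads surfactant phospholipid. Abca2 (A_52_P485007, chromosome 2) read 9.95, 10.08, 10.18 and 9.78 on Mrp4-null 1 to 4 and 9.84, 9.82, 9.88 and 9.65 on wild-type 1 to 4. Mrp4-null 1, 2 and 3 exceeded all wild-type values, and Mrp4-null 4 fell inside their range. The difference of 0.20 (SE 0.11, 95% interval -0.045 to 0.44) was the highest among the members and did not pass the test (limma adjusted p = 0.916; exact permutation p = 0.114). Abca3 (A_55_P2062936, chromosome 17) read 12.43, 12.80, 12.61 and 12.50 on Mrp4-null 1 to 4 and 12.59, 12.46, 12.65 and 12.55 on wild-type 1 to 4, a difference of 0.023 (SE 0.099, 95% interval -0.20 to 0.25).

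The drug pumps of the barrier followed. Abcb1a (A_55_P1969477, chromosome 5), the P-glycoprotein gene of mouse brain capillaries, read 7.75, 7.39, 7.77 and 8.02 on Mrp4-null 1 to 4 and 7.50, 8.12, 7.49 and 7.78 on wild-type 1 to 4. The difference was 0.013 (SE 0.18, 95% interval -0.39 to 0.41). Abcb1b (A_51_P245368, also chromosome 5) was dim, at 5.94, 4.66, 5.67 and 5.87 on Mrp4-null 1 to 4 and 5.11, 5.97, 5.02 and 5.65 on wild-type 1 to 4. On both probes Mrp4-null 2 was the lowest and wild-type 2 the highest of the 8 arrays. The Abcb1b difference was 0.10 (SE 0.32, 95% interval -0.62 to 0.82), the widest interval of the 11. The other Abcb1b probe, A_52_P92772, was well above background on 0 of 8 arrays (signal 2.95 to 10.3) and was not tested. The 2 genes are paralogs, and how far each probe reads the other's transcript was not given in the sources.

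ABCG2, a pump of the luminal vessel wall that works beside P-glycoprotein, was steadier. Abcg2 (A_55_P1996504, chromosome 6) read 10.22, 10.16, 10.37 and 10.30 on Mrp4-null 1 to 4 and 10.12, 10.21, 10.29 and 10.30 on wild-type 1 to 4. The difference was 0.031 (SE 0.082, 95% interval -0.16 to 0.22). The SD within a genotype was 0.089 and 0.084 for Abcg2, against 0.26 and 0.30 for Abcb1a and a median of 0.19 over all retained probes.

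**Figure D2:**
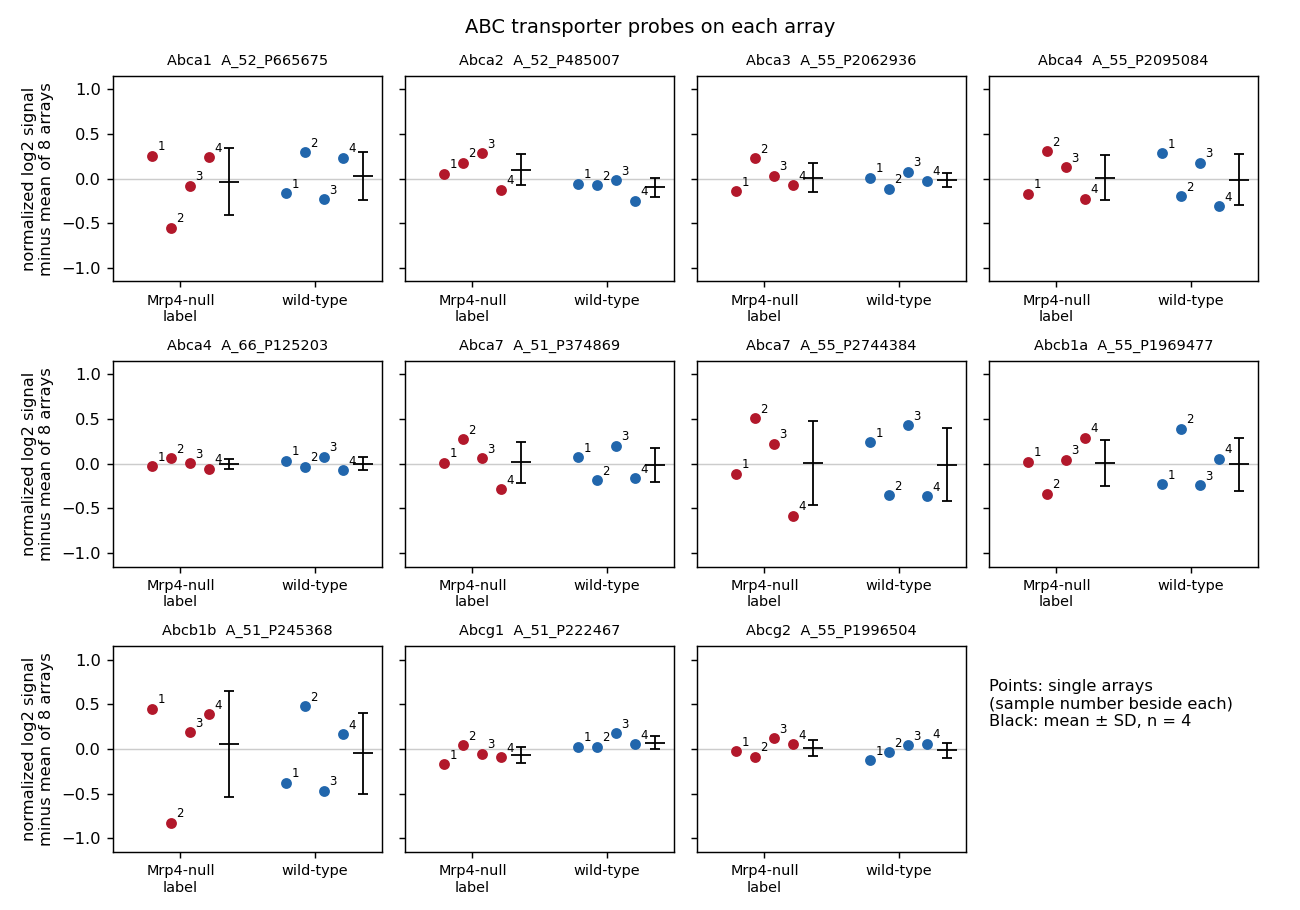
Normalized log2 signal of each of the 11 retained member probes, less its mean over the 8 arrays, for arrays labelled Mrp4-null (red) and wild-type (blue), with sample numbers beside the points and black bars at mean ± SD (n = 4). The genotypes overlap in every panel, and the spread is widest for Abcb1b and narrowest for Abca4 A_66_P125203.

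For 9 of the 11 probes the fitted difference was smaller than the SD within either label, Abca2 and Abcg1 being the exceptions. Between arrays the members formed 2 opposed sets. Abca1, Abcb1a and Abcb1b were low on Mrp4-null 2, wild-type 1 and wild-type 3 and high on Mrp4-null 4 and wild-type 2, while Abca3, Abca4 and Abca7 mostly ran the other way. Of the 55 pairs among the 11 probes, 27 had a Pearson correlation over the 8 arrays with an adjusted exact permutation p under 0.05, of which 12 were positive and 15 negative. Each of the 27 had the same sign within the 4 arrays of either label and without the 2 dimmest arrays. By Spearman's rho, 17 pairs passed.

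Correlations within a set were high. The 2 Abca7 probes gave r = 0.98 and rho = 0.98 (adjusted exact permutation p = 0.0027 and 0.0105), and r = 0.97 without the 2 arrays farthest from the median. Abca1 and Abcb1b, a sterol exporter and a drug pump, gave r = 0.95 and rho = 0.98 (adjusted exact permutation p = 0.00818 and 0.0105), and r = 0.85 without the 2 farthest arrays. Abcb1a and Abcb1b gave r = 0.91 and rho = 0.83 (adjusted exact permutation p = 0.0161 and 0.0497), with r = 0.88 when the 2 farthest arrays were left out. Between the sets the sign turned. Abca1 against Abca3 gave r = -0.95 and rho = -0.95 (adjusted exact permutation p = 0.00818 and 0.0105), with r = -0.82 on the remaining 6 arrays. Abca7 A_51_P374869 against Abcb1a gave r = -0.90 and rho = -0.95 (adjusted exact permutation p = 0.0162 and 0.0105), with r = -0.84 on the remaining 6. Abca2, Abcg1 and Abcg2 were in none of the 27 pairs.

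Correlations of this size were also found across the array. Of 37073 other retained probes, 15.9% correlated with Abca1 above 0.8 and 14.1% below -0.8. For Abca4 A_66_P125203 the shares were 9.4% and 10.7%, and for Abcb1a 8.95% and 8.01%. Among the members, Abca1 passed 0.8 in size with Abca3, Abca4, Abca7, Abcb1a and Abcb1b, and not with Abca2, Abcg1 or Abcg2. Abca4 A_66_P125203 and Abcb1a passed it with each other, Abca1, Abca7 and Abcb1b, and not with Abca3, Abca2, Abcg1 or Abcg2. Whether the members exceeded the shares of the array was not tested. The points share the arrays, the normalization and the brightness of each array. Against the 75th percentile of the signal, 11 relations were computed and none passed by Pearson's r after adjustment. Spearman's rho passed for Abcb1b (rho = 0.98, adjusted exact permutation p = 0.00437, with r = 0.80 and adjusted exact p = 0.110), for Abca1 (rho = 0.93, adjusted exact permutation p = 0.0123, with r = 0.69 and adjusted exact p = 0.150) and for Abca3 (rho = -0.88, adjusted exact permutation p = 0.0266, with r = -0.82 and adjusted exact p = 0.0865). Without Mrp4-null 2 and wild-type 3, the 2 arrays farthest from the median, r was 0.38, 0.059 and -0.49 in that order. The rank correlation over the same 6 arrays was 0.94 for Abcb1b (exact permutation p = 0.0167), 0.83 for Abca1 (exact permutation p = 0.0583) and -0.71 for Abca3 (exact permutation p = 0.136), none of these p adjusted.

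**Figure D3:**
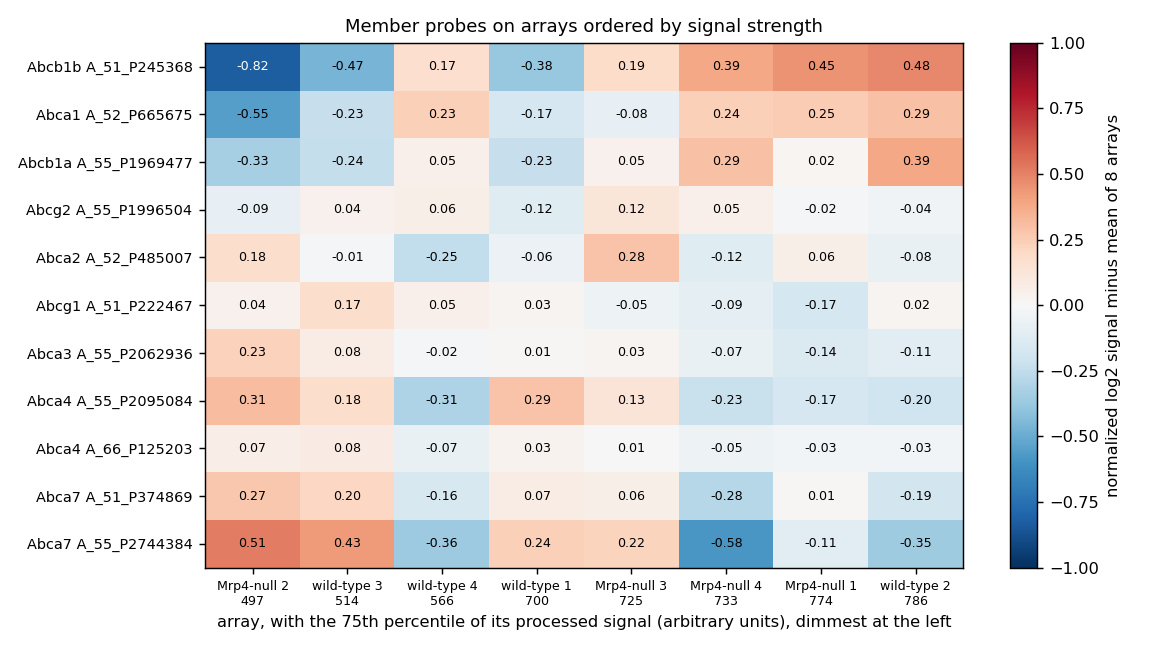
Normalized log2 signal of each member probe less its mean over 8 arrays, with arrays ordered from dim (left) to bright (right) by the 75th percentile of processed signal, printed under each name. On the dimmest array, Mrp4-null 2, Abcb1b stands at -0.82 and Abca1 at -0.55, while Abca7 A_55_P2744384 stands at 0.51.

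The genes most like 3 of the members in this pattern were taken over the 8 arrays after the mean of each genotype was removed. Closest to Abca4 A_66_P125203 were Pcdh9 (r = 0.999), Phka2 (r = 0.990) and 1500009C09Rik (r = 0.990). Closest to Abcb1a were Ccdc187 (r = 0.994), Gm13375 (r = 0.984) and Zfp874a (r = 0.984). Closest to Abca1 were Tead1, Hey2 and Lrrc58, each at r = 0.998. These are the highest values over all named probes of other genes, given as a description.

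The cell types that carry these transporters were read through marker lists. The labelled tissue was borne out by rod genes, with all 10 retained and a mean normalized log2 signal of 16.30 to 16.37 on arrays labelled Mrp4-null and 16.27 to 16.42 on wild-type arrays. Endothelial genes (all 12 retained), which mark the wall where Abcb1a and Abcg2 act, had a mean of 8.71, 8.18, 8.64 and 8.69 on Mrp4-null 1 to 4 and 8.65, 8.80, 8.50 and 8.66 on wild-type 1 to 4. The lowest and highest of these 8 means fell on Mrp4-null 2 and wild-type 2, and the lowest and highest Abcb1a signals fell on the same arrays. This was not particular to endothelial genes, as the Müller glia list was also lowest (12.74) and highest (13.00) there. The same arrays were the dimmest and brightest of the series, with a 75th percentile of 497 and 786. Abcg2 stood at 10.16 and 10.21 on those arrays. The part of endothelial RNA in the Abcb1a values was not tested.

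By limma no gene of any of the 10 marker lists was called changed, and every list's means overlapped between the genotypes. An unadjusted limma p under 0.05 was given by 3 of 12 endothelial and 3 of 8 lens genes, beside 6.46% of all retained probes. It was also given by 1 of 7 cone, 1 of 8 Müller glia and 1 of 5 retained myelin genes. The local pooled error test called 7 of the 8 lens genes by their brightest probe and no gene of the other 9 lists. Pericyte genes ran from 7.69 to 7.98 on arrays labelled Mrp4-null and from 7.72 to 7.91 on wild-type arrays, and cone genes from 13.74 to 13.97 and from 13.83 to 13.95. Müller glia genes ran from 12.74 to 12.96 and from 12.86 to 13.00, and myelin genes from 8.21 to 8.38 and from 8.28 to 8.42. Microglial and macrophage genes ran from 8.11 to 9.07 and from 8.19 to 8.31, with the 9.07 on Mrp4-null 3. Lens genes, which mark another tissue of the eye, spread most, from 6.23 to 8.94 and from 7.70 to 10.15, and their list mean was lower on arrays labelled Mrp4-null by more than that of any other list (difference of -1.48 on the log2 scale, with 0 of 8 genes higher). Their part in the member values was not tested. Pigment epithelium genes ran from 7.54 to 7.95 and from 7.40 to 7.97, and blood genes from 10.95 to 11.89 and from 10.92 to 11.86. Lrat, Mobp and Slc4a1 were not retained, and Hbb-bs was not matched.

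**Figure D4:**
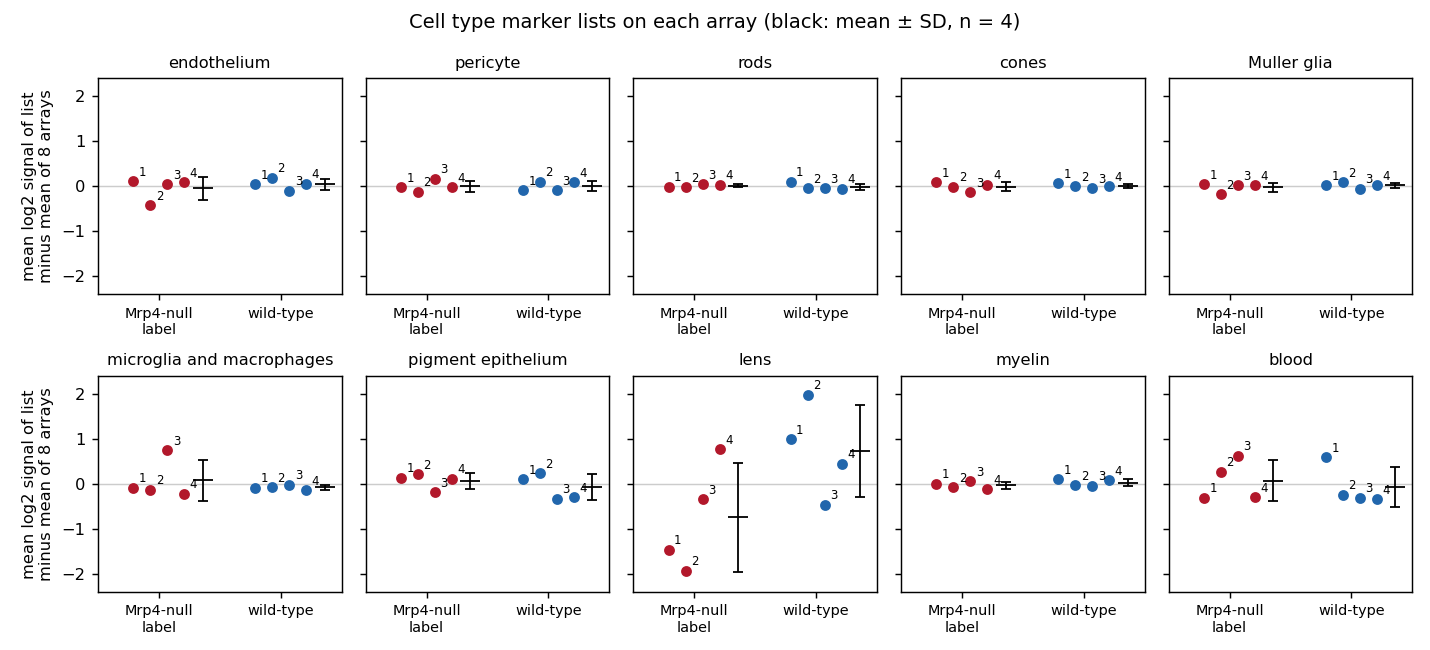
Mean normalized log2 signal of each marker list, less its mean over 8 arrays, on arrays labelled Mrp4-null (red) and wild-type (blue), with sample numbers and black bars at mean ± SD (n = 4). Lens genes spread most and are lower by mean on arrays labelled Mrp4-null, microglial genes stand apart on Mrp4-null 3, and endothelial genes are lowest on Mrp4-null 2.

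ABC genes of the A, B, D, E, F and G subfamilies and the pathways in which the members work were summarized by the brightest retained probe of each gene. The C subfamily, to which Abcc4 belongs, was not part of this list. Of 33 other ABC genes in it 26 were retained, with 13 higher and 13 lower by mean, none called changed (limma) and a median difference of 0.0011 on the log2 scale. Only 1 had an unadjusted p under 0.05 (6.46% of all retained probes did), that of Abca8b, a relative of ABCA1. It read 9.79, 9.70, 9.82 and 9.70 on Mrp4-null 1 to 4 and 10.04, 9.90, 9.98 and 10.01 on wild-type 1 to 4. The groups did not overlap, as for 4.79% of all retained probes, but the difference of -0.23 (SE 0.073) did not pass (limma adjusted p = 0.450). The largest differences in size were those of Abca13 (0.39, SE 0.18), Tap1 (0.37, SE 0.44) and Abca9 (0.29, SE 0.19), with overlapping groups. The Abca9 difference was 0.16 without wild-type 3 and 0.086 with normexp background correction. TAP1 carries peptides to the endoplasmic reticulum for antigen presentation, and its 0.37 rested on Mrp4-null 3 at 9.14, where the other 7 arrays lay between 7.04 and 7.32.

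Sterol efflux partners, the liver X receptors that switch on Abca1 and Abcg1 with the apolipoproteins and enzymes that receive or modify their cholesterol, had 22 of 23 genes retained. Of these 10 were higher and 12 lower, none was called changed (limma), and the median was -0.028. An unadjusted p under 0.05 was given by 2 (6.46% of all retained probes), and 3 had groups that did not overlap (4.79%). Ch25h makes 25-hydroxycholesterol, a ligand of those receptors, and read 6.06, 5.71, 8.08 and 5.56 on Mrp4-null 1 to 4 and 5.20, 4.83, 4.57 and 4.10 on wild-type 1 to 4. The groups did not overlap, and Mrp4-null 3 was by far the highest. The difference of 1.68 (SE 0.53, 95% interval 0.48 to 2.88) did not pass limma (adjusted p = 0.450) and was called by the local pooled error test, the only call of that test in the 5 lists. It was dim but well above background on all 8 arrays, and the difference was 1.11 without Mrp4-null 3 and 0.83 with normexp background correction.

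Lcat, which esterifies the cholesterol that ABCA1 and ABCG1 export, also did not overlap. It read 5.75, 5.30, 5.74 and 5.53 on Mrp4-null 1 to 4 and 5.16, 4.98, 5.27 and 5.27 on wild-type 1 to 4, a difference of 0.41 (SE 0.12, limma adjusted p = 0.398) that was 0.14 with normexp background correction (limma adjusted p = 0.853). Rxrg, a retinoid X receptor and partner of the liver X receptors, did not overlap either, at 10.22 to 10.47 on arrays labelled Mrp4-null and 10.51 to 10.58 on wild-type arrays (-0.17, SE 0.080, limma adjusted p = 0.807). Cyp27a1, which makes 27-hydroxycholesterol, differed by 0.33 (SE 0.22) with overlapping groups, and by 0.11 without Mrp4-null 3, and turned to -0.15 with normexp background correction. Beside these, Abca1 and Abcg1 themselves differed by -0.067 and -0.14.

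Genes of sterol synthesis and uptake, with the transcription factor SREBP2 that drives many of them and its regulators, were all 15 retained. By mean, 12 were lower on arrays labelled Mrp4-null, where 53.2% of all retained probes were lower, and the median was -0.11. None was called changed, none had an unadjusted p under 0.05 and none had groups that did not overlap (limma and local pooled error test). The largest differences in size were those of Cyp51 (-0.19, SE 0.092), a demethylase of the sterol ring, Insig1 (-0.19, SE 0.18), which holds SREBP in the endoplasmic reticulum, and Lrp1 (0.18, SE 0.11), an apolipoprotein E receptor. With 1 array left out, Insig1 ran from -0.34 (without Mrp4-null 2) to -0.089 (without Mrp4-null 1), and Lrp1 was 0.090 without Mrp4-null 3.

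Regulators of drug pumps, the nuclear receptors and sensors that control Abcb1 and Abcg2, had 8 of 9 genes retained. Of these 2 were higher and 6 lower, with none called and a median of -0.060. Arnt (-0.16, SE 0.29), Ppara (-0.12, SE 0.086) and Nr1i3 (-0.12, SE 0.28) had the largest fitted differences in size, with overlapping groups. Without Mrp4-null 3 Arnt turned to 0.034 and Ppara was -0.062, and without Mrp4-null 2 Nr1i3 turned to 0.11. Retinoid cycle genes, the partners of ABCA4, had 10 of 11 retained, with 5 higher and 5 lower, none called and a median of 0.0094. Of the 10, 1 had an unadjusted limma p under 0.05 and 1 had groups without overlap (6.46% and 4.79% of all retained probes). Rdh11, a photoreceptor retinol dehydrogenase, was 11.30 to 11.49 on arrays labelled Mrp4-null and 11.49 to 11.66 on wild-type arrays, without overlap before rounding (-0.16, SE 0.079, limma adjusted p = 0.856). Rbp4, the retinol carrier of plasma, overlapped only through Mrp4-null 1 (7.91) and wild-type 1 (7.90) and differed by -0.26 (SE 0.087, limma adjusted p = 0.515), or by -0.16 with normexp background correction (limma adjusted p = 0.823). Stra6, its receptor, differed by 0.33 (SE 0.22), and by 0.55 without Mrp4-null 2 and 0.21 without Mrp4-null 4.

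**Figure D5:**
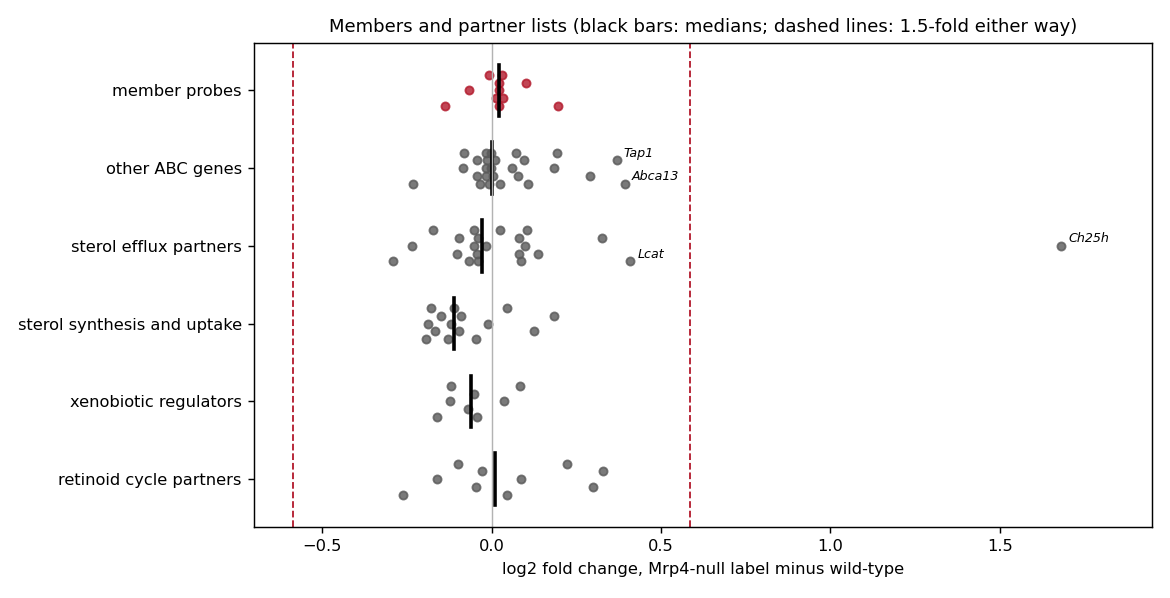
Fitted log2 fold change, arrays labelled Mrp4-null over wild-type, of the 11 member probes (red) and of the brightest retained probe of each gene in 5 lists (grey), with black bars at the medians and dashed lines at 1.5-fold. Member probes lie between -0.14 and 0.20, and of the list genes only Ch25h, at 1.68, lies beyond a dashed line.

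Genes near the members in the genome were read for calls within 5 Mb either way, by the gene order of GRCm38.p6. No neighbour was called near Abca1 (35 genes retained), Abca2 (147), Abca4 (33), Abca7 (214), Abcb1a (31), Abcb1b (26) or Abcg2 (40). A single gene was called among 202 near Abca3 and among 253 near Abcg1, where 0.545% of all retained probes were called. Those windows lie on the same chromosome, and whether both hold the same called gene is not given here. The windows of Abcb1a and Abcb1b overlap, so their counts are not separate.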

How the data were processed

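For each one-color array the authors deposited its scanner output, whose processed intensities the Feature Extraction software had corrected for background within the array, without normalization between arrays. The submitters' processing notes name Agilent Feature Extraction 11.0.1.1. The authors' table of values for the series was used as an alternative. Controls and outlier spots (78 to 143 per array) were left out, and spots of a probe were averaged as log2 intensity. The filter kept probes that stood well above background on all measured arrays of either genotype (at least 3 measured in it and 2 in the other), and values were quantile-normalized as in the study's methods. The array design carries an older build (mm9) than the gene table (GRCm38.p6), so that table served for names, chromosomes, neighbouring genes and promoters. Of 56605 probes, 32994 matched a gene, and 23651 of those were retained, covering 16093 genes.

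R 4.3.3, limma 3.58.1 and data.table (version 1.17.8) were used. Genotypes were compared over all 37085 retained probes by lmFit and eBayes with Benjamini-Hochberg adjustment, and a call needed an adjusted p under 0.05 and a 1.5-fold difference or more. The methods' local pooled error test was rewritten (bins of 0.01, spline of 10 degrees of freedom) and its p adjusted likewise. Fits were tested on simulated data. Exact two-sided permutation tests ran over the 70 splits of 4 and 4 arrays. The number of arrays limits the precision. Named were every member probe, Abcc4, and in each list the genes called, those with the 3 largest differences in size, and those without overlap between genotypes, plus the 3 genes most like Abca4, Abcb1a and Abca1. A gene that this rule names is not reported here. Members and lists were chosen with earlier results of these data known. Same-numbered arrays of the genotypes were not paired by the labels. Alternatives covered scaling, background, filters, outlier spots, the deposited table, the test, the threshold, the sample number as a block, and each array left out.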

Additional observations from a re-analysis of the deposited data

How the results depend on the processing

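No member probe was called changed under any alternative tried, by limma or by the local pooled error test. Of all probes, 71 were called with the replicate number as a block. Same-numbered arrays correlated in their deviations at -0.29, -0.69, 0.034 and 0.41, and none correlated best with its own number. The labels give no pairing by number, and so few values cannot exclude one. A single sterol efflux gene, Ch25h, was called by the local pooled error test. Scaling to the 75th percentile left 5 members higher by mean and turned Abca3 (-0.020), Abca4 A_55_P2095084 (-0.017) and Abca7 A_51_P374869 (-0.0059). Normexp, run on median signals, turned Abca7 A_55_P2744384 (-0.0099) and Cyp27a1 (-0.15). In alternatives added after seeing the data, the 75th percentile as a covariate turned Abca4 A_66_P125203 (0.0043), Abcb1a (-0.049) and Abcb1b (-0.031), and without the 2 dimmest arrays (Mrp4-null 2 and wild-type 3) 128 probes were called, 1 member (Abcg1) did not overlap, and Abca1 (0.019), Abca3 (-0.020), Abca4 A_55_P2095084 (-0.014), Abca7 A_55_P2744384 (-7.0e-05) and Nr1i3 (0.092) turned. Leaving out each array in turn gave 117 to 188 calls in all, with the 3 lowest counts of 117, 129 and 131 without wild-type 4, 3 and 2. Members without overlap were 0 to 1 (Abcg1 without Mrp4-null 2, Abca2 without Mrp4-null 4), members higher by mean 4 to 8, and the Abcc4 difference 3.83 to 4.00. With 1 array left out, differences near 0 crossed it: Abca1 -0.16 to 0.11, Abca3 -0.049 to 0.074, Abca4 A_55_P2095084 -0.078 to 0.12 and A_66_P125203 -0.030 to 0.020, Abca7 A_51_P374869 -0.051 to 0.13 and A_55_P2744384 -0.15 to 0.22, Abcb1a -0.082 to 0.14, Abcb1b -0.036 to 0.39, Abcg2 -0.0057 to 0.064, Tap1 -0.15 to 0.55, Arnt -0.34 to 0.034 and Nr1i3 -0.33 to 0.11. The directions of Abca2 and Abcg1 held throughout. The causes of these moves were not tested.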

Other observations

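The third array labelled Mrp4-null held the highest value of several genes and the lowest of others. Microglial and macrophage genes averaged 9.07 there against 8.11 to 8.31 on the other 7 arrays, Tap1 read 9.14, Ch25h 8.08 and Cyp27a1 6.21. It held the lowest of the 8 values for Arnt (10.45), Rxrg (10.22), Ppara (10.94), Rdh11 (11.30), Rbp4 (7.67) and Cyp51 (10.12), and the lowest cone mean (13.74). Abca1 and Abcg1, which macrophages also use to export cholesterol, read 9.67 and 12.65 on that array, inside the range of the other arrays. Abca2 and Abcg2 were at their highest there, at 10.18 and 10.37. Without that array the Tap1 difference turned from 0.37 to -0.15. No explanation was tested.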
